A study of Mus musculus with 32 samples.

Results

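Of the 20076 genes counted in mouse liver, 10 genes of growth arrest and of the immediate early response are described here. They were chosen by name, before any filter on counts but with earlier results of these data known. They are the cell cycle inhibitor Cdkn1a, the stress genes Gadd45a, Gadd45b and Gadd45g, the antiproliferative genes Btg1 and Btg2, the cyclin Ccnd1, and the immediate early transcription factors Egr1, Jun and Fos. Since the choice was not blind to the data, counts of members that passed are descriptions only. All 10 passed the filter on low counts when all groups were fitted together. RNA came from livers of male C57BL/6J mice that were wild type (WT) or Acadm-knockout and had eaten a low-fat (LF) or high-fat (HF) diet for 6 weeks. They were killed fed or after 16 h without food. Acadm encodes the medium-chain acyl-CoA dehydrogenase MCAD, which oxidizes medium-chain fatty acids in mitochondria, and the knockout (KO) is carried in the whole animal, with WT littermates as controls. The labelled ages ran from 7.5 to 16, with no unit given. There were 4 mice in each of the 8 groups of genotype, diet and feeding state, and each mouse gave 1 library.

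These genes connect outside signals with the decision to divide. Growth factors and stress induce Egr1, Jun and Fos within minutes, and their products are transcription factors that switch on later genes, among them Ccnd1. The cyclin D1 protein drives cells through G1 together with its kinases, and p21, the product of Cdkn1a, holds cyclin-dependent kinases back. The GADD45 proteins bind p21, PCNA and stress kinases, and BTG1 and BTG2 recruit the deadenylase that removes poly(A) tails from mRNA. In the adult liver hepatocytes rarely divide, and Cdkn1a responds to p53 and to other factors, including hormone and nutrient signals.

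Libraries of 2 mice stood apart and were left out of every result unless stated otherwise. In KO HF fasted replicate 4 the summed level of 12 heart markers was 43520 CPM (read counts scaled to the size of the library), against at most 338 CPM in the 30 mice kept, and 10 hepatocyte markers summed to 891 CPM against 46993 to 73171 CPM. In WT LF fed replicate 2 the summed level of 12 markers of proliferating cells was 482 CPM against 9.49 to 40.8 CPM, and its Ccnd1 level was 611 CPM. The 30 mice used had total counts of 2031053 to 4292200. Acadm itself was at 8.98 to 37.1 CPM in the 15 KO mice and 190 to 748 CPM in the 15 WT mice. Of 10 genes known to respond to fasting, 9 to 10 lay on the fasted side in 13 fasted mice and 0 to 4 in the 15 fed mice, the side being set by the midpoint between LF fed and LF fasted mice. The count was 3 in WT HF fasted replicate 2 and 5 in KO HF fasted replicate 1, so that these livers lay near the fed level, and calls among the members that changed without them are given both ways. Markers of acinar pancreas summed to 17877 CPM in WT HF fasted replicate 2 and 2618 CPM in KO HF fed replicate 1, against 60.1 CPM or less in the other mice. Adrenal cortex markers summed to 169 CPM in KO LF fasted replicate 3 and 74.3 CPM in KO LF fasted replicate 4, against 35.8 CPM or less elsewhere. The expression of the members in bulk liver cannot tell a change per cell from a change in the number of cells of a type.

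Sequences before the start of transcription are shown for the 4 members that passed a test averaged over the groups and have a window in the RefSeq promoter table, so that the letters can be read beside the values that follow. They come from RefSeq on GRCm38.p6, run 5′ to 3′ on the strand of the gene, and hold the bases before the RefSeq start, cut short where they would enter an annotated exon. Cdkn1a has windows at 2 starts, which reads from the 3′ end of transcripts do not tell apart. Capitals mark matches to the p53 half-site in the first Cdkn1a window, CCAAT in Gadd45a, TATAAA and CCAAT in Gadd45b, and TATAAA and, both on the other strand, the CCAAT box and the FoxO motif (GTAAACA, here TGTTTAC) in Btg1.
Cdkn1a, first start (chr17:29090729-29090975, plus strand): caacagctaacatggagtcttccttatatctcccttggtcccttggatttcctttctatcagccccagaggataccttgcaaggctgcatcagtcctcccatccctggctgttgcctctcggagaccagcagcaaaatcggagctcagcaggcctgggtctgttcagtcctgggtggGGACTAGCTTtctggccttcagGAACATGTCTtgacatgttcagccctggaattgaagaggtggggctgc
Cdkn1a, second start (chr17:29093519-29093768, plus strand): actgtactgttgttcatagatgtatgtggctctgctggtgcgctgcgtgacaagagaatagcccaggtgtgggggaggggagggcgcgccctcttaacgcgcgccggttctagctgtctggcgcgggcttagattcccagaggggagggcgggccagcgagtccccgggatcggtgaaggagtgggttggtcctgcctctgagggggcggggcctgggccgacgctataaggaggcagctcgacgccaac
Gadd45a (chr6:67037458-67037657, minus strand): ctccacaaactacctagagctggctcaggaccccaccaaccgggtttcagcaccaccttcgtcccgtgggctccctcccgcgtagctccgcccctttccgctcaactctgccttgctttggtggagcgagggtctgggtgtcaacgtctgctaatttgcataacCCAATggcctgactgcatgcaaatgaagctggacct
Gadd45b (chr10:80929841-80930072, plus strand): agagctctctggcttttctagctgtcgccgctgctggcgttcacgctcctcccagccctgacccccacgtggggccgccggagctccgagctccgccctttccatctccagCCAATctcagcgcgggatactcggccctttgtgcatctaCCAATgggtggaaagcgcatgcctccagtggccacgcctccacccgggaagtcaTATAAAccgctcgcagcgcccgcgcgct
Btg1 (chr10:96616751-96617000, plus strand): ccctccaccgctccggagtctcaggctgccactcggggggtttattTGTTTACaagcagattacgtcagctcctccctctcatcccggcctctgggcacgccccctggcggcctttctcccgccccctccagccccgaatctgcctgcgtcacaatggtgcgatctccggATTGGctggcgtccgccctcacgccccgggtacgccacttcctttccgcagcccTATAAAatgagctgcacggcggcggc

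Both strands of 9 promoter windows of 300 bases, from 8 members, were searched for 7 motifs, each a description of letters and no evidence of binding. No window of Ccnd1 or Egr1 was searched. The first Cdkn1a window held 2 p53 half-sites, 73 and 51 bases before the start, and 0.359% of all 32851 RefSeq windows held that many. At least 1 such half-site was in 8.36% of all windows, Gadd45a among them. GTAAACA was in 3.65% of windows, and among the members' windows in that of Btg1 alone, 204 bases before its start. The cyclic AMP element TGACGTCA, in 1.79% of windows, lay 166 bases before the start of Btg2. TATAAA was in 13.6% of windows and among them in Gadd45b, Gadd45g, Btg1 and Fos, and CCAAT was in 37.4%. The AP-1 motif TGANTCA, in 7.81% of windows, and the CArG box, in 1.63%, had no match in the windows of these 8 members, which says nothing about Egr1 or Ccnd1.

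On average over the groups, fasting raised Cdkn1a and Gadd45b and lowered Gadd45a, but on the HF diet alone no member passed in WT or KO mice. Averaged over the 4 combinations of genotype and diet, 3 of the 10 members passed an adjusted p of 0.05 in edgeR's quasi-likelihood test, against 18.9% of the 11566 genes tested. The median log2 fold change was 0.23 over the members and -0.0022 over all genes. The 7 other members, with the 3 immediate early genes among them, did not pass.

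Cdkn1a (ENSMUSG00000023067, chromosome 17, 29090976 to 29100727, plus strand of GRCm38) encodes the inhibitor of cyclin-dependent kinases p21 and gave the clearest response. In fed WT LF mice its level was 12.5, 10.7 and 12.3 CPM, and in fasted WT LF mice 134, 138, 60.8 and 52.6 CPM. In fed KO LF mice it was 8.97, 13.5, 4.81 and 9.07 CPM, and in fasted KO LF mice 129, 107, 88.1 and 177 CPM. On the LF diet every fasted mouse thus exceeded every fed mouse of either genotype. Fed and fasted LF ranges did not overlap, in either direction, for 20.1% of all genes in WT and 13.7% in KO mice. On the HF diet the fed levels were 7.78, 4.39, 10.1 and 17.1 CPM in WT and 4.19, 9.58, 10.5 and 14.4 CPM in KO mice. The fasted levels were 19.8, 7.52, 21.4 and 22.3 CPM in WT HF mice and 10.3, 11.2 and 46.0 CPM in KO HF mice. Fed and fasted ranges on this diet overlapped, since WT HF fasted replicate 2 and KO HF fasted replicates 1 and 2 lay within the fed range. Exons of Cdkn1a overlap AC167363.2 on the opposite strand, for which no counts are given.

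The fitted fold change of Cdkn1a with fasting was 8.08 in WT LF mice (log2 fold change 3.01 ± 0.54 SE, adjusted p = 0.000581, edgeR) and 13.9 in KO LF mice (3.80 ± 0.51, adjusted p = 1.05e-05). It was 1.81 in WT HF mice (0.86 ± 0.51, adjusted p = 0.668) and 2.34 in KO HF mice (1.23 ± 0.53, adjusted p = 0.55), neither of which passed. Without KO HF fasted replicate 3, the liver at 46.0 CPM, the KO HF change was 1.11-fold. Without the 2 HF fasted mice near the fed level the changes were 1.097 on the log2 scale in WT HF (adjusted p = 0.399) and 1.57 in KO HF mice (adjusted p = 0.199). The average over the 4 combinations was 4.67-fold (2.22 ± 0.26, adjusted p = 4.86e-07). A two-sided exact permutation test gave p = 0.0286 for KO LF, the smallest that 4 against 4 mice allow, and p = 0.0571 for WT LF, the smallest that 4 against 3 allow. The WT LF call was 1 of the 872 genes called there (7.54%), and the KO LF call 1 of 1595 (13.8%). With all 32 mice the WT LF change of Cdkn1a was 1.67 on the log2 scale with an adjusted p of 0.147, and WT LF fed replicate 2 stood at 86.7 CPM. The 3 WT LF fed mice used were all in lane 8. WT LF fasted replicates 1 and 2, in lane 7, were at 134 and 138 CPM, and replicates 3 and 4, in lane 8, at 60.8 and 52.6 CPM. Fasting and lane thus cannot be fully told apart in the WT LF change. Since lane 7 holds no WT LF fed mouse, a common change fitted within it leaves out that combination. It was 1.72 for Cdkn1a (adjusted p = 0.0588), and within lane 8, over all 4 combinations, 2.34 (adjusted p = 0.0101).

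Gadd45b (ENSMUSG00000015312, chromosome 10, 80930073 to 80932204, plus strand) is induced by stress and inflammation and feeds into the p38 and JNK kinases. It was at 0 to 9 counts in the 15 fed mice. In fed mice it reached 1.44, 2.68 and 0 CPM in WT LF and 0, 1.26, 0.343 and 1.56 CPM in KO LF. In fasted mice it reached 8.94, 10.0, 3.02 and 3.54 CPM in WT LF and 8.38, 4.89, 5.80 and 11.3 CPM in KO LF. The first 2 of these WT LF values came from lane 7 and the last 2 from lane 8, the lane of all WT LF fed mice used. Fasting and lane thus cannot be fully told apart in WT LF mice. All LF fasted mice lay above all LF fed mice, by a margin of less than 1 CPM at the closest. Within a genotype such a gap, in either direction, was present for 20.1% of all genes in WT LF and 13.7% in KO LF mice. On the HF diet the fed values were 0.778, 0, 0 and 0 CPM in WT and 3.14, 0.799, 0.901 and 0 CPM in KO mice. The fasted values were 1.93, 0, 2.79 and 9.63 CPM in WT HF and 0.644, 2.72 and 7.58 CPM in KO HF mice, so that the ranges overlapped.

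The average change of Gadd45b was 6.74-fold (2.75 ± 0.54, adjusted p = 0.000136, edgeR) and that in KO LF mice 9.27-fold (3.21 ± 0.98, adjusted p = 0.02). In WT LF mice it was 4.53-fold (adjusted p = 0.198) and in KO HF mice 3.03-fold (adjusted p = 0.789), or 1.38-fold without KO HF fasted replicate 3. In WT HF mice every fed library was at 3 counts or fewer. Against a floor of 3 counts per library the fasted mean was 3.40-fold higher. This limit covers counting error in the fed libraries and not the spread between mice, and the adjusted p was 0.141 (edgeR). Without WT HF fasted replicate 4, the liver at 9.63 CPM, this limit was 1.49-fold. Without WT HF fasted replicate 2 and KO HF fasted replicate 1 this adjusted p was 0.0246. The KO LF call was lost without KO LF fasted replicates 3 and 4 (adjusted p = 0.0768) or replicate 4 alone (0.054), without KO LF fed replicate 1 (0.0675) and without KO LF fed replicate 3 (0.0625). Within lane 7, over the 3 combinations other than WT LF, the change was 1.61 with an adjusted p of 0.336, and within lane 8 it was 2.86 with an adjusted p of 0.00408.

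Gadd45a (ENSMUSG00000036390, chromosome 6, 67035096 to 67037457, minus strand) is a p53 target that slows the cell at the G2 checkpoint, and it moved the other way. In fed LF mice it was at 3.36, 20.5 and 21.6 CPM in WT and 11.2, 1.69, 7.21 and 12.8 CPM in KO mice. In fasted LF mice it was at 3.35, 4.01, 6.90 and 2.28 CPM in WT and 0, 1.55, 5.80 and 0 CPM in KO mice. These values rest on 9 to 16 counts per library in WT and 0 to 11 in KO mice. The lowest fed mouse of each genotype lay inside the fasted range. On the HF diet fed mice had 4.67, 15.7, 17.6 and 8.89 CPM in WT and 8.03, 8.79, 9.91 and 3.85 CPM in KO. Fasted HF mice had 8.26, 8.65, 5.35 and 8.09 CPM in WT and 12.6, 3.06 and 7.58 CPM in KO, within or near the fed values. The average change was -1.20 ± 0.35 on the log2 scale (adjusted p = 0.0128, edgeR), or 2.30-fold lower, and it was -2.30 ± 0.77 in KO LF mice (adjusted p = 0.0424) and -1.89 ± 0.69 in WT LF mice (adjusted p = 0.10). The KO LF call was lost in 10 of the alternatives, 6 of them without a single LF mouse, with an adjusted p up to 0.117. Within lane 7, over the 3 combinations other than WT LF, the change was -0.71 (adjusted p = 0.57), and within lane 8 -1.24 (adjusted p = 0.302). The exons of Gadd45a overlap E230016M11Rik on the opposite strand, which had 0 to 23 counts, and since no source used here says whether counting used the strand, reads of the pair cannot be told apart.

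**Figure D1:**
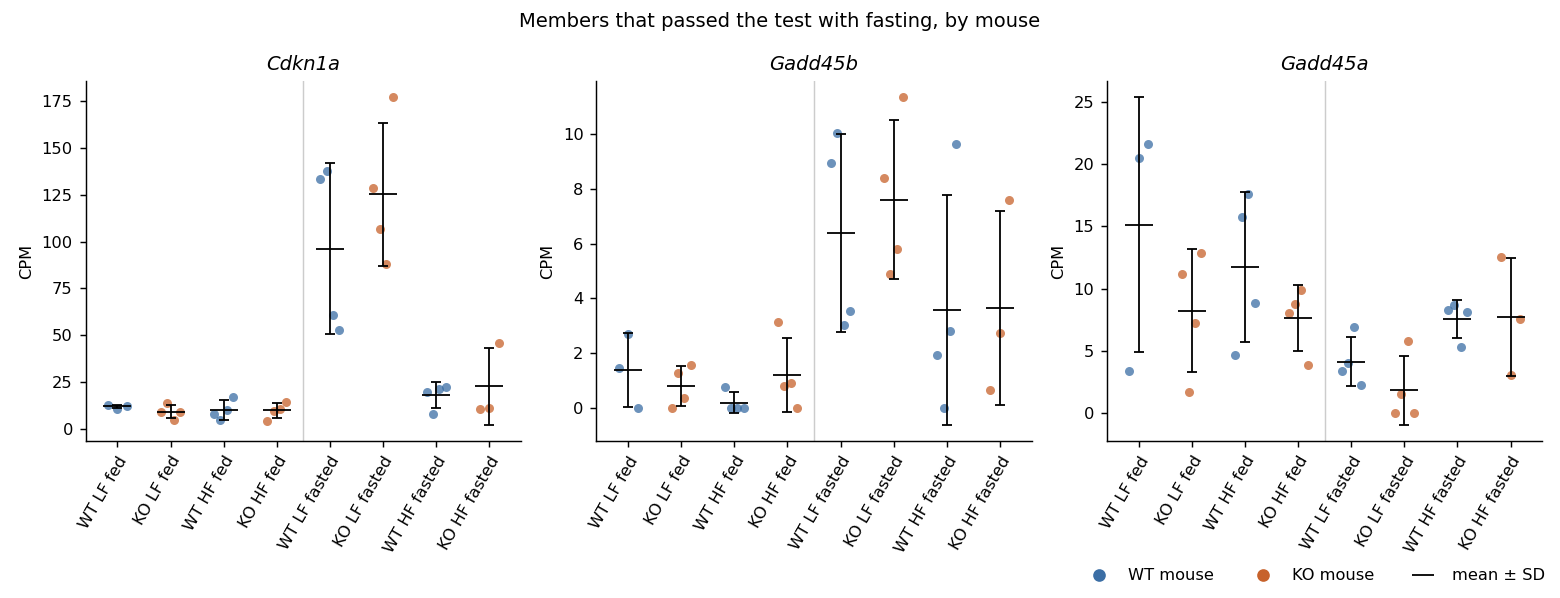
Level of Cdkn1a, Gadd45b and Gadd45a in CPM (vertical axes, linear) in the 8 groups (horizontal axes), with 1 point per mouse, WT in blue and KO in orange, and the mean ± SD in black. Cdkn1a is highest in the LF fasted groups, at 52.6 to 177 CPM, and Gadd45b stays at or below 3.14 CPM in fed mice.

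Counts of members in the single combinations were read against the genome-wide share. In WT LF mice 1 of 10 members passed (7.54% of all genes) and in KO LF mice 3 of 10 (13.8% of all genes). In WT HF mice 0 of 10 passed, against 0.424% of all genes, with 1 member at an unadjusted p under 0.05, and DESeq2 and limma voom also called 0. In KO HF mice 0 of 10 passed, against 0.527%, with 2 members at an unadjusted p under 0.05, and both other tools called 0. No member had a fasting change that differed between KO and WT mice, where edgeR called 0 of the 11566 genes (0%). There 1 member, Btg2, had an unadjusted p under 0.05, and DESeq2 and limma voom called no member.

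Whether diet altered the fasting response was tested as the difference of the changes, HF minus LF, averaged over the genotypes. Cdkn1a was the 1 member that passed, against 2.46% of all genes. Its response was smaller on the HF diet by -2.36 ± 0.52 on the log2 scale, or 5.15-fold (adjusted p = 0.0131, edgeR). Without the 2 HF fasted mice near the fed level it was -2.07 (adjusted p = 0.0357). With all 32 mice it was -1.37 (adjusted p = 0.417), and with WT LF fed replicate 2 added back alone it was -1.69 (adjusted p = 0.243). The difference was +2.43 ± 0.74 for Egr1 (adjusted p = 0.0931), +1.35 ± 0.45 for Ccnd1 (adjusted p = 0.13), +1.78 ± 0.70 for Gadd45a (adjusted p = 0.213) and -2.31 ± 0.94 for Gadd45g (adjusted p = 0.255), none of which passed. For Egr1 DESeq2 gave an adjusted p of 0.0276 and limma voom 0.0375, and edgeR 0.03 without KO LF fasted replicate 1. Gadd45a passed without KO LF fasted replicate 3 (adjusted p = 0.0433) and Gadd45g without KO LF fed replicate 1 (adjusted p = 0.0417).

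Diet changed Cdkn1a, Btg1 and Ccnd1, in 2 directions. Averaged over genotype and feeding state, 3 of the 10 members passed for HF against LF, and 3.49% of all genes did. Cdkn1a was 2.39-fold lower on the HF diet (-1.25 ± 0.26, adjusted p = 0.00568, edgeR), Btg1 1.43-fold lower (-0.52 ± 0.12, adjusted p = 0.00804) and Ccnd1 2.10-fold higher (1.07 ± 0.23, adjusted p = 0.00792). These comparisons use the same mice as the fasting comparisons and are no separate evidence for Cdkn1a.

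For Cdkn1a the diets differed in fasted mice. All 8 LF fasted mice, at 52.6 CPM or more, lay above all 7 HF fasted mice, at 46.0 CPM or less. Fasted ranges of the 2 diets did not overlap for 7.23% of all genes in WT and 9.36% in KO mice. The level of Cdkn1a on the HF diet was 5.35-fold lower in WT fasted mice (-2.42 ± 0.46, adjusted p = 0.00642, edgeR) and 5.48-fold lower in KO fasted mice (-2.45 ± 0.51, adjusted p = 0.0124). The call in KO fasted mice was lost without KO HF fasted replicate 1 (adjusted p = 0.0993) or without KO HF fasted replicate 2 (adjusted p = 0.0685), and without both mice near the fed level (-2.11, adjusted p = 0.0637). In fed mice the difference was -0.26 ± 0.56 in WT and 0.12 ± 0.54 in KO mice, with 95% intervals of -1.36 to 0.83 and -0.95 to 1.18. WT fasted mice had 1 member called against 1.12% of all genes and KO fasted mice 1 against 1.68%. WT fed mice had 0 members called against 0.0778% and KO fed mice 0 against 0.00865%, with 1 member at an unadjusted p under 0.05 in each, Egr1 and Btg1, and no call by DESeq2 or limma voom.

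Ccnd1 (ENSMUSG00000070348, chromosome 7, 144929931 to 144939925, minus strand) encodes cyclin D1, the partner of CDK4 and CDK6. In LF mice it was at 35.1, 60.4 and 63.5 CPM in fed WT and 26.6, 65.8, 37.8 and 59.1 CPM in fed KO livers. In fasted LF mice it was at 25.0, 29.3, 22.4 and 23.3 CPM in WT and 32.2, 31.9, 14.2 and 21.1 CPM in KO livers. The 4 WT values lay below all WT LF fed values, and 20.1% of all genes had such a gap there, in either direction. In HF mice it was at 80.9, 20.1, 58.4 and 106 CPM in fed WT and 76.5, 57.5, 84.7 and 40.4 CPM in fed KO livers. Fasted HF livers had 45.4, 102, 103 and 73.6 CPM in WT and 38.3, 73.2 and 149 CPM in KO mice. Every fasted HF liver thus lay above every fasted LF liver, and the fed livers of both diets overlapped. Within a genotype, fasted ranges of the 2 diets did not overlap for 7.23% of all genes in WT and 9.36% in KO mice.

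In fasted mice Ccnd1 was 3.24-fold higher on the HF diet in WT (1.70 ± 0.45) and 3.45-fold in KO mice (1.79 ± 0.47), with adjusted p of 0.0622 and 0.0513 in edgeR, so neither passed alone. In KO fasted mice edgeR called Ccnd1 without the 2 mice near the fed level (2.14, adjusted p = 0.0307) or without KO HF fasted replicate 1 (adjusted p = 0.0283), and without KO HF fasted replicate 3 the difference was 1.15. In WT fasted mice it called Ccnd1 without WT HF fasted replicate 1 (1.90, adjusted p = 0.0463). DESeq2 called both, with adjusted p of 0.00882 and 0.00788. In fed mice the difference was 0.33 ± 0.46 in WT and 0.46 ± 0.43 in KO mice. The averaged diet call held without any single mouse, at an adjusted p of at most 0.0208, but not with WT LF fed replicate 2 among the LF fed mice, where the change was 0.60 (adjusted p = 0.425). In that library Ccnd1 stood at 611 CPM from 1937 counts. Exons of Ccnd1 overlap LTO1 on the opposite strand, which had 9 to 45 counts.

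Btg1 (ENSMUSG00000036478, chromosome 10, 96617006 to 96622809, plus strand), which slows proliferation and is a known FoxO target in other cells, had an SD of 8.36 to 26.5% of the mean within groups. Its level in LF mice was 16.8, 28.2 and 22.6 CPM in fed WT, 32.4, 21.1, 37.8 and 24.1 CPM in fed KO, 27.9, 36.9, 37.5 and 29.9 CPM in fasted WT and 34.9, 31.7, 29.5 and 46.1 CPM in fasted KO livers. In HF mice it was 20.6, 18.3, 28.0 and 25.2 CPM in fed WT, 15.0, 22.4, 20.4 and 14.1 CPM in fed KO, 19.8, 16.2, 29.8 and 23.5 CPM in fasted WT and 20.9, 17.7 and 19.5 CPM in fasted KO livers. The diets did not overlap in fasted KO livers, where 9.36% of all genes did not, and overlapped in the other 3 combinations. The HF to LF change there was -0.88 ± 0.25 (adjusted p = 0.0611, edgeR), against -0.69 ± 0.23 in fed KO, -0.55 ± 0.23 in fasted WT and 0.04 ± 0.25 in fed WT livers, none of which passed alone. With fasting Btg1 changed by 0.23 ± 0.12 (adjusted p = 0.189), with a 95% interval of -0.0014 to 0.46.

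**Figure D2:**
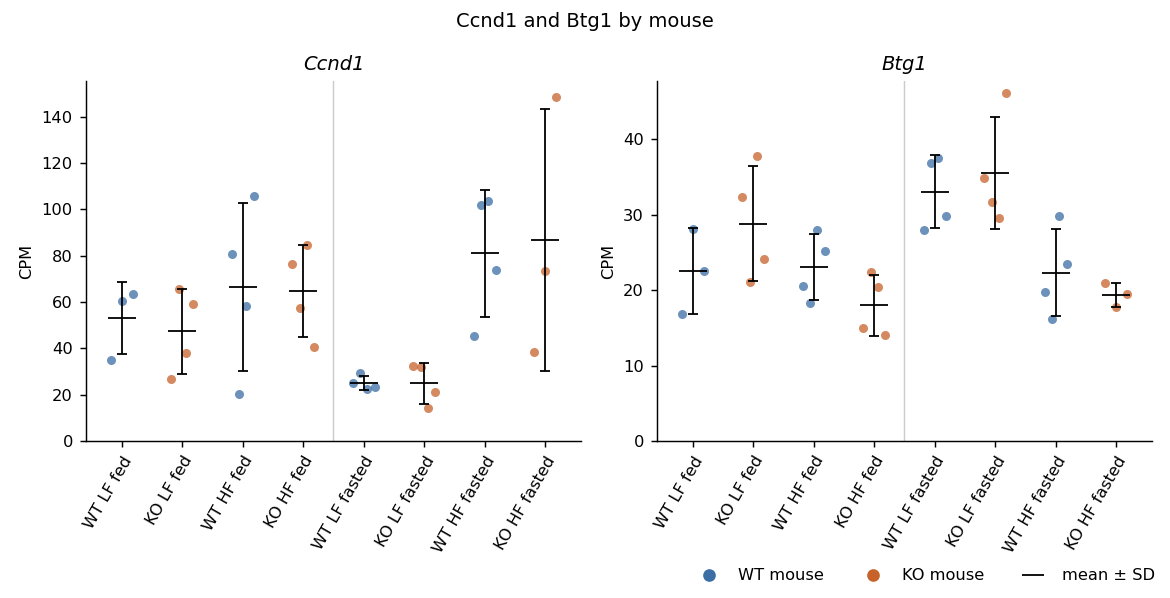
Level of Ccnd1 and Btg1 in CPM (vertical axes, linear) in the 8 groups (horizontal axes), with 1 point per mouse, WT in blue and KO in orange, and the mean ± SD in black. Ccnd1 lies between 14.2 and 32.2 CPM in all LF fasted livers and between 38.3 and 149 CPM in all HF fasted livers.

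The immediate early genes varied widely between mice of one group. Egr1 (ENSMUSG00000038418, chromosome 18, 34859823 to 34864984, plus strand), a zinc finger factor, was at 63.0, 108 and 169 CPM in WT LF fed, 30.8, 24.9, 75.2 and 190 CPM in KO LF fed, 8.55, 24.5, 18.8 and 31.6 CPM in WT HF fed and 59.7, 52.3, 50.8 and 19.6 CPM in KO HF fed livers. In fasted livers it was at 52.9, 61.8, 11.6 and 15.9 CPM in WT LF, 147, 29.9, 27.4 and 47.3 CPM in KO LF, 25.3, 26.3, 69.6 and 72.4 CPM in WT HF and 98.6, 48.7 and 266 CPM in KO HF mice. The lowest group mean was 20.9 ± 9.76 CPM (SD, n = 4) in WT HF fed livers, all of which lay below every WT LF fed liver. Between these 2 groups 8.33% of all genes did not overlap. The 3 WT LF fed livers were all in lane 8 and 3 of the 4 WT HF fed livers in lane 7, so diet and lane cannot be fully told apart here. Of the WT LF fasted livers, those at 52.9 and 61.8 CPM were in lane 7 and those at 11.6 and 15.9 CPM in lane 8. Fasting and lane cannot be fully told apart in WT LF livers either. The change of Egr1 with fasting was -1.68 ± 0.76 in WT LF and -0.37 ± 0.70 in KO LF livers but 1.21 ± 0.75 in WT HF and 1.60 ± 0.75 in KO HF livers, and 0.19 ± 0.37 on average (adjusted p = 0.788, edgeR). HF against LF gave -2.43 ± 0.78 in fed WT livers, with an adjusted p of 0.622.

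Jun (ENSMUSG00000052684, chromosome 4, 95049034 to 95052222, minus strand), a subunit of AP-1, had fed levels between 25.8 and 97.4 CPM. In fasted KO LF livers it was at 36.2, 20.9, 132 and 151 CPM, and the high values were in replicates 3 and 4. The other fasted livers had 25.7 to 92.6 CPM. In the same 2 livers the 6 adrenal cortex markers summed to 169 and 74.3 CPM, and Gadd45g was at 116 and 126 CPM. Whether adrenal tissue took part was not tested. The average change of Jun with fasting was 0.31 ± 0.26 (adjusted p = 0.488, edgeR) and -0.09 without those 2 mice. Jun overlaps Junos on the opposite strand, which had 0 to 6 counts.

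Fos (ENSMUSG00000021250, chromosome 12, 85473890 to 85477273, plus strand), the partner of Jun in AP-1, was near the limit of the counts, with 1 to 27 counts per library. Its highest group mean was 6.60 ± 1.92 CPM (SD, n = 3) in KO HF fasted livers, at 8.05, 4.43 and 7.31 CPM, and its lowest 1.92 ± 1.41 CPM (SD, n = 4) in WT HF fed livers. The average change with fasting was 0.52 ± 0.42 (adjusted p = 0.448, edgeR), and fed and fasted livers overlapped in all 4 combinations.

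Btg2 (ENSMUSG00000020423, chromosome 1, 134075170 to 134079120, minus strand), an antiproliferative gene that also behaves as an immediate early gene, was at 3.11 to 19.1 CPM in fed livers. In fasted LF livers it was at 11.9, 14.4, 4.74 and 2.78 CPM in WT and 7.94, 13.1, 16.4 and 29.3 CPM in KO mice. In fasted HF livers it was at 9.08, 5.27, 12.3 and 9.63 CPM in WT and 21.9, 10.6 and 53.3 CPM in KO mice. Its highest value, in KO HF fasted replicate 3, came with the highest Egr1 value, 266 CPM. The average change with fasting was 0.23 ± 0.28 (adjusted p = 0.656, edgeR), and the fasting change in KO exceeded that in WT mice by 1.36 ± 0.56 (adjusted p = 0.973).

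Gadd45g (ENSMUSG00000021453, chromosome 13, 51846678 to 51848468, plus strand), the third stress sensor of the family, varied widely within groups, with an SD of 147% of the mean in fed KO LF livers. In fed KO LF livers it was at 143, 0, 31.9 and 5.95 CPM, where the liver at 0 CPM had 0 counts, which allows up to 3 counts. In fed livers it was at 9.37, 17.1 and 13.9 CPM in WT LF, 3.5, 98.8, 49.8 and 47.3 CPM in WT HF and 31.8, 29.9, 17.4 and 31.7 CPM in KO HF mice. In fasted livers it was at 65.9, 67.8, 28.0 and 8.10 CPM in WT LF and 41.0, 58.2, 116 and 126 CPM in KO LF mice. Fasted HF livers kept to 9.98 to 23.5 CPM. Those of KO mice lay below all KO LF fasted livers, where 9.36% of all genes did not overlap, but above the WT LF fasted liver at 8.10 CPM. The average change with fasting was 0.12 ± 0.46 (adjusted p = 0.90, edgeR), and that with HF diet in fasted KO livers -2.20 ± 0.999 (adjusted p = 0.34).

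**Figure D3:**
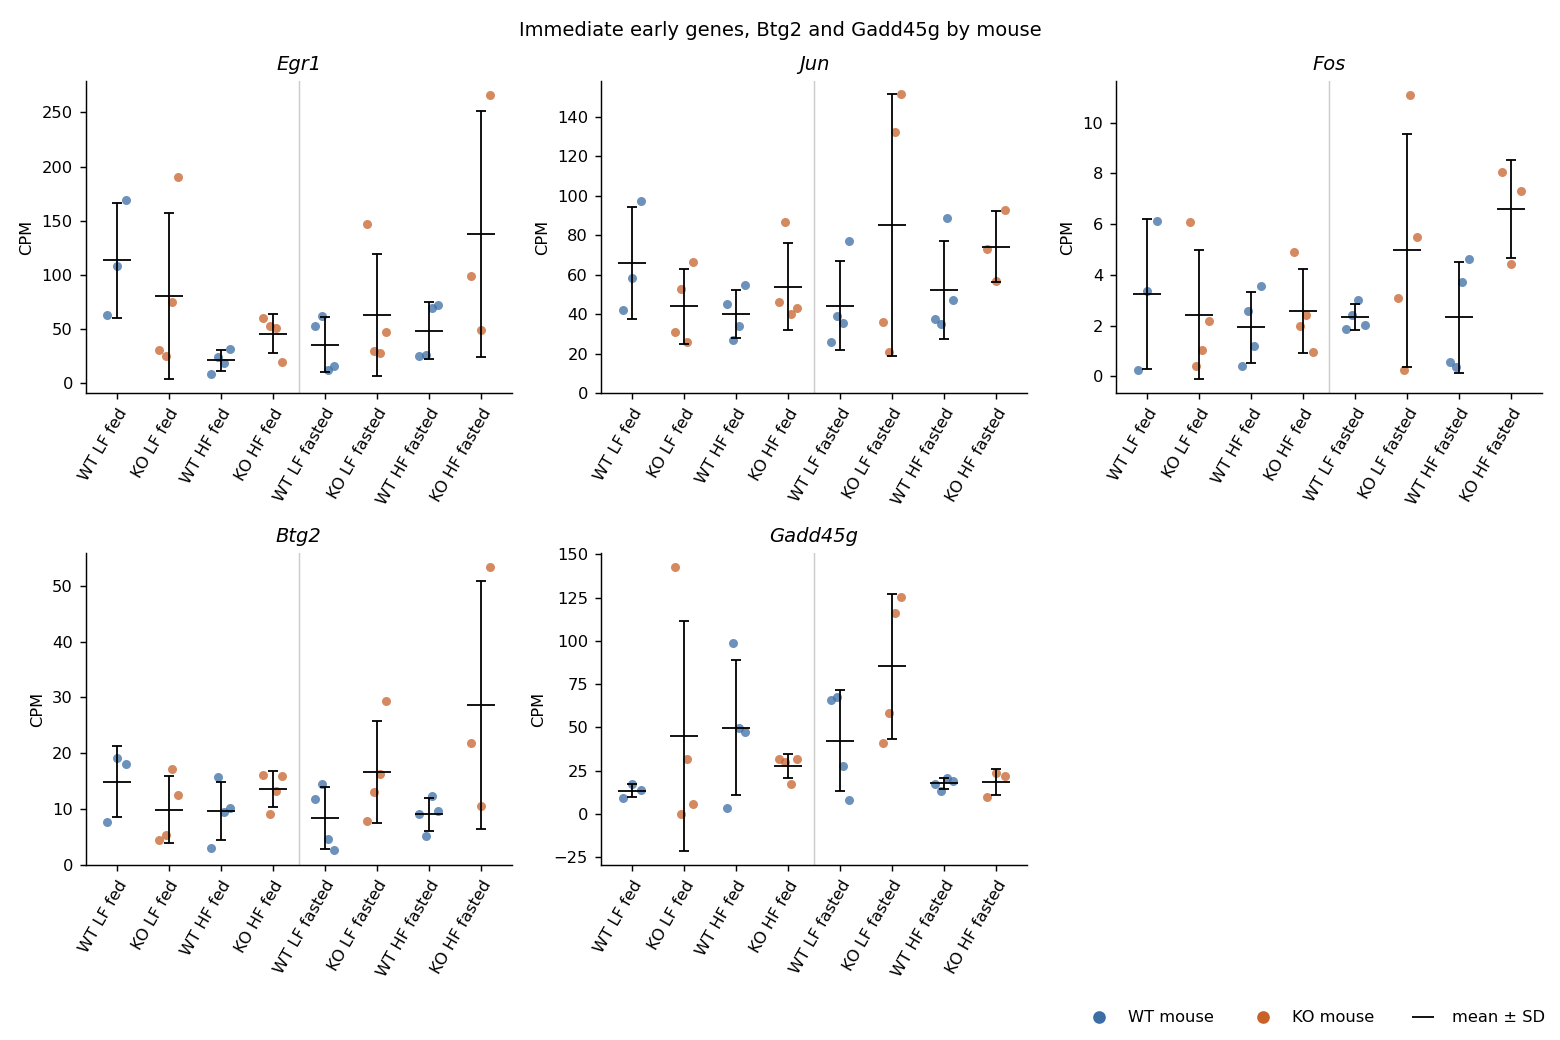
Level of Egr1, Jun, Fos, Btg2 and Gadd45g in CPM (vertical axes, linear, with a separate scale for each gene) in the 8 groups (horizontal axes), with 1 point per mouse, WT in blue and KO in orange, and the mean ± SD in black. The groups overlap for most pairs, and single livers such as KO HF fasted replicate 3 (Egr1 at 266 CPM, Btg2 at 53.3 CPM) set much of the spread.

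Loss of MCAD was compared at each diet and feeding state with the mice of that condition alone. No member passed in any of the 4 conditions. In LF fed livers 0 of 9 members tested passed (0.0193% of all genes) and 0 had an unadjusted p under 0.05. In LF fasted livers it was 0 of 8 (0.0104%), with 0 at an unadjusted p under 0.05. In HF fed livers 0 of 8 passed (0.00998%) and 1, Egr1, had an unadjusted p under 0.05, and in HF fasted livers 0 of 9 passed (0.00960%) and 2, Btg2 and Fos, did. Averaged over the conditions 0 of 10 passed (0.00865%), and 1, Btg2, had an unadjusted p under 0.05. DESeq2 and limma voom called 0 members in each of these 5 comparisons. The members not tested in a condition, Gadd45b in LF fed, Gadd45a and Fos in LF fasted, Gadd45b and Fos in HF fed and Gadd45b in HF fasted livers, did not pass the filter on low counts there.

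The lowest unadjusted p among the members in these comparisons was that of Btg2 in HF fasted livers, 0.00929 in edgeR, for a 3.11-fold higher level in KO mice (1.64 ± 0.50, adjusted p = 0.996, edgeR), where the ranges of 5.27 to 12.3 CPM in WT and 10.6 to 53.3 CPM in KO mice overlapped. Without KO HF fasted replicate 3 it was 1.76-fold, and without KO HF fasted replicate 2 it was 4.08-fold. Egr1 differed by 1.51 ± 0.73 in HF fasted and 1.13 ± 0.43 in HF fed livers (adjusted p = 0.996 and 0.999), the former falling to 0.60 without KO HF fasted replicate 3. Without the filter on low counts edgeR called Btg2 in HF fasted (adjusted p = 7.21e-05) and Egr1 in HF fed livers (adjusted p = 0.0436), and with the lane as a term it called Egr1 in HF fasted livers (adjusted p = 0.00459). For Cdkn1a the KO to WT difference was 0.38 ± 0.33 in LF fasted livers, with a 95% interval of -0.26 to 1.02, and 0.35 ± 0.61 in HF fasted livers, with an interval of -0.85 to 1.55, and -0.73 without KO HF fasted replicate 3. For Ccnd1 it was between -0.16 and 0.10 in the 4 conditions.

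**Figure D4:**
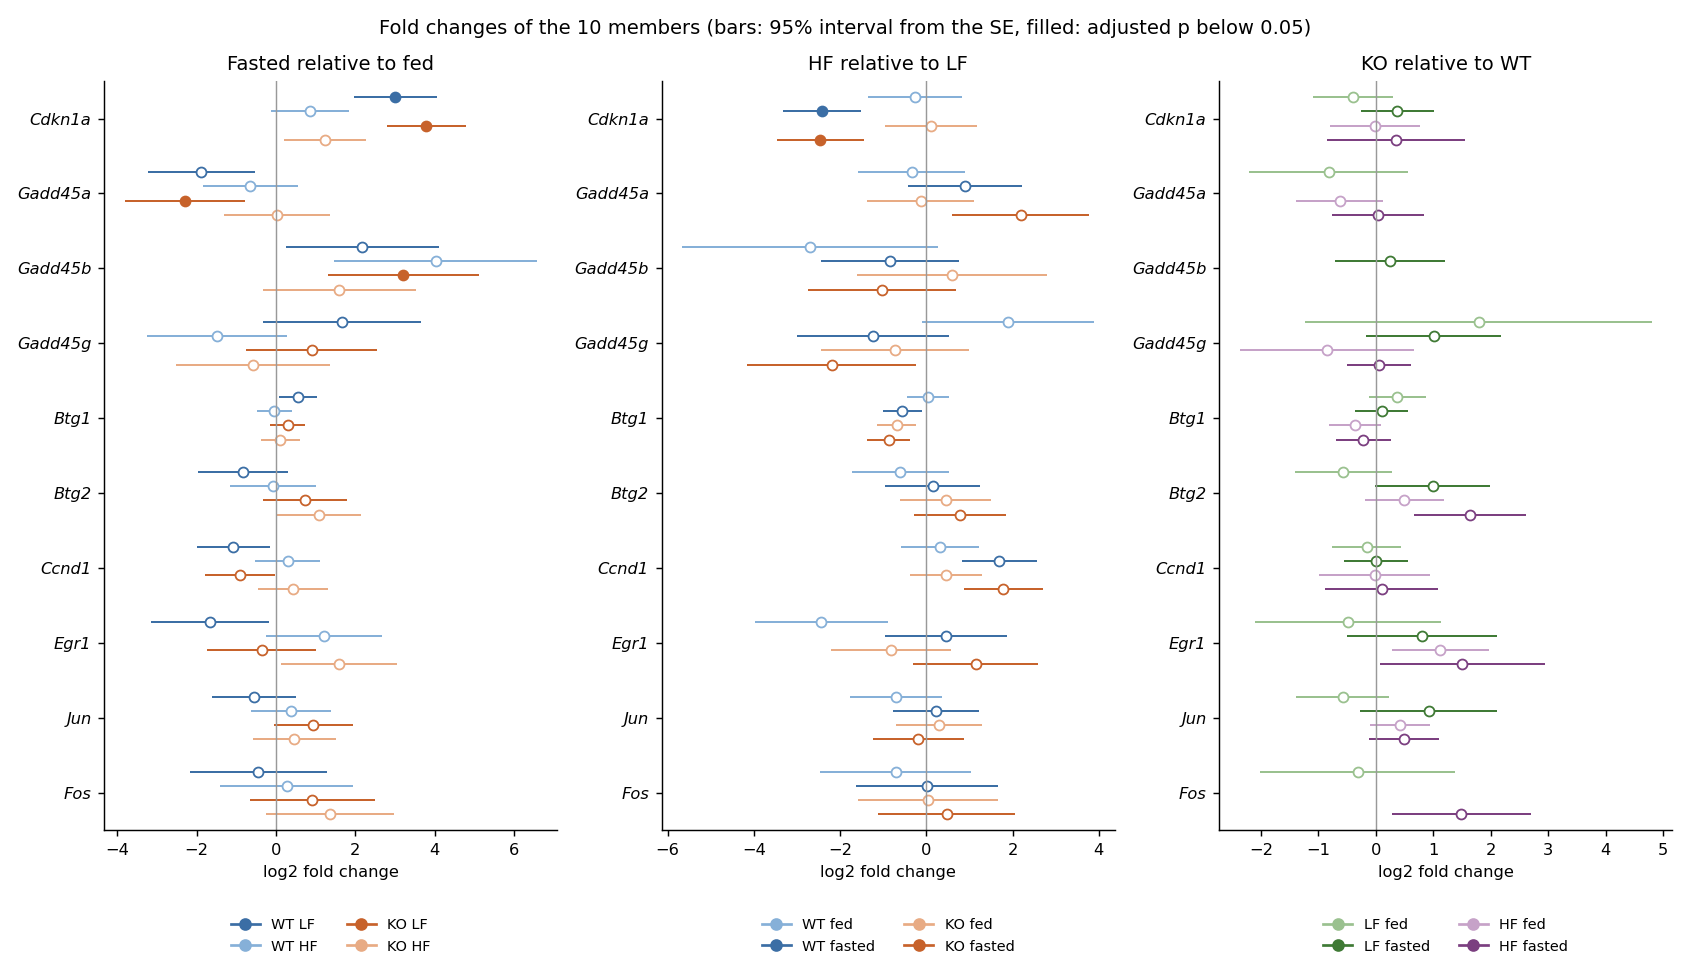
Log2 fold changes (horizontal axes) of the 10 members (vertical axes) for fasted against fed, HF against LF and KO against WT livers in the single conditions, with 95% intervals from the SE and filled points at an adjusted p below 0.05. Filled points appear for Cdkn1a, Gadd45a and Gadd45b with fasting on the LF diet and for Cdkn1a with diet in fasted livers, and none for KO against WT.

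Genes around the members were counted on lists drawn up by function, each count to be read against the 18.9% of all genes called with fasting. The lists, like the members, were chosen with earlier results of these data known, so these counts are descriptions only. Of 21 p53 targets and inhibitors of cyclin-dependent kinases, 13 were tested and 3 passed with fasting on average, near the share of all genes (18.9%). Trp53inp1 rose (log2 fold change 0.79, adjusted p = 0.000904, edgeR) and so did Mdm2 (0.29, adjusted p = 0.0252), whose product degrades p53, while Bbc3, which encodes the proapoptotic PUMA, fell by 0.94 on the log2 scale (adjusted p = 0.000203). The list median was 0.05. Bbc3 was at 40.9 ± 16.2 CPM (SD, n = 7) in LF fed and 16.4 ± 3.89 CPM (SD, n = 8) in LF fasted livers. The change of Cdkn1a was 2.22 on the same scale.

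Of the 14 G1 cyclins, kinases and E2F genes 12 were tested, 1 rose and 3 fell, against 18.9% of all genes called. Ccnd3 rose (0.55, adjusted p = 0.000985, edgeR), with 25.6 ± 4.85 CPM in LF fed and 45.0 ± 10.7 CPM in LF fasted livers. Ccnd2 fell by 0.66 (adjusted p = 0.000189), E2f2 by 1.78 (adjusted p = 0.000135) and E2f1 by 0.97 (adjusted p = 0.0161). Ccnd1, the member among the D-type cyclins, had -0.32 ± 0.22 and did not pass. The markers of proliferating cells, 12 genes with a summed level of 14.4 to 30.96 CPM in LF fed, 9.49 to 26.9 CPM in LF fasted, 21.6 to 40.8 CPM in HF fed and 12.3 to 24.1 CPM in HF fasted livers, were at low levels in all of these livers. The 6 cholangiocyte markers summed to 60.7 to 96.1 CPM in LF fed, 48.9 to 62.5 CPM in LF fasted, 55.3 to 69.1 CPM in HF fed and 59.0 to 96.8 CPM in HF fasted livers, and to 335 CPM in WT LF fed replicate 2. The part of either marker list in the Ccnd1 result was not tested.

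Of 27 other immediate early genes 21 were tested, 2 rose and 2 fell with fasting, near the 18.9% of all genes. Klf4 (0.97, adjusted p = 0.0183, edgeR) and Ccn2, encoding a matricellular growth factor (0.79, adjusted p = 0.028), rose. Klf6 fell by 0.50 (adjusted p = 0.00304) and Dusp6, the phosphatase of ERK, by 0.58 (adjusted p = 0.0202). In LF livers Dusp6 went from 86.5 ± 37.6 CPM fed to 37.0 ± 20.4 CPM fasted, and in HF livers it was at 76.4 ± 19.6 and 80.6 ± 28.8 CPM. The difference in its fasting response between the diets passed (1.34 ± 0.35, adjusted p = 0.0365), and so did that of Ccn2 (-1.97 ± 0.51, adjusted p = 0.0357). The list median with fasting was -0.10.

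Of 19 regulators and partners of the immediate early and Gadd45 genes, all tested, 1 rose and 2 fell, no more than the 18.9% of all genes. Mapk8, the kinase JNK1, rose (0.30, adjusted p = 0.024, edgeR). Crem, a CREB family factor, fell by 0.62 (adjusted p = 0.000336) and Map3k4, the kinase that GADD45 proteins activate, by 0.57 (adjusted p = 0.0145). Of 7 genes of the BTG and TOB family and its partners 4 were tested, Tob2 rose (0.34, adjusted p = 0.0169) and Cnot8, a deadenylase subunit, fell by 0.39 (adjusted p = 0.0272), so that 2 of 4 were called against 18.9% of all genes.

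Genes of FoxO and glucocorticoid signalling, 7 in all, had 3 rising and 2 falling, against 18.9% of all genes called. Per1 rose most (2.22 ± 0.30, adjusted p = 1.99e-06, edgeR), from 2.86 ± 1.54 CPM in LF fed to 29.1 ± 15.6 CPM in LF fasted livers. Fkbp5, which glucocorticoids induce, rose as well (1.92 ± 0.27, adjusted p = 1.08e-05), from 10.8 ± 6.66 to 80.2 ± 42.4 CPM on the LF diet and from 14.0 ± 4.12 to 26.3 ± 9.95 CPM on the HF diet. Foxo1 rose (0.31, adjusted p = 0.0114), and the glucocorticoid receptor gene Nr3c1 fell by 0.42 (adjusted p = 0.00058) and Foxo4 by 0.54 (adjusted p = 0.0156). The fasting response differed between the diets for Per1 (-2.24 ± 0.61, adjusted p = 0.04) and Nr3c1 (0.73 ± 0.18, adjusted p = 0.0183). Between the diets 1 other gene of these lists passed on average, Jund, which fell by 0.51 on the HF diet (adjusted p = 0.0458), and Ccn2 was lower in WT fasted livers (-1.97 ± 0.48, adjusted p = 0.0351). Between KO and WT livers 0 genes of these lists passed in edgeR. For FoxO and glucocorticoid signalling the list median of the fasting change was 0.20, and the median over all genes -0.0022.

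Genes with a pattern most like a member were ranked by Pearson's r of log2 CPM over the 30 mice, among 7397 genes with a mean of at least 10 CPM. Such an r is a description, since all 30 mice share the same groups and lanes. Glrx (r = 0.93) and Agpat3 (0.91) were most like Cdkn1a, Gm15441 (0.84) and Fitm2 (0.84) most like Gadd45b, and Eepd1 (0.79) and Pter (0.77) most like Gadd45a. For Ccnd1 they were 1810058I24Rik (0.75) and Exoc4 (0.74), and for Btg1 Pqbp1 (0.72) and Phb2 (0.71). Among the early genes Btg2 was most like Egr1 (0.64) and Junb (0.62), Egr1 like Kdm4a (0.68) and Btg2 (0.64), Fos like Rbfox2 (0.73) and Junb (0.64), Jun like Fabp4 (0.66) and Etv6 (0.59), and Gadd45g like Rassf1 (0.67) and Heca (0.67).

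Subtracting the group means leaves the variation between mice treated alike. There Agpat3 (0.74) and Itfg2 (0.71) were most like Cdkn1a, Por (0.69) and Fitm2 (0.69) like Gadd45b, Bcor (0.73) and 9030619P08Rik (0.72) like Gadd45a, Rassf1 (0.72) and Zfp275 (0.71) like Gadd45g, and Id1 (0.66) and Enc1 (0.66) like Btg1. For Btg2 they were Arl15 (0.78) and Retreg1 (0.75), for Ccnd1 Pdzk1 (0.76) and Copb2 (0.69), for Egr1 Stat3 (0.74) and Ip6k2 (0.72), for Jun the fat cell genes Cfd (0.69) and Fabp4 (0.69), and for Fos Rbfox2 (0.72) and Stx2 (0.68). Agpat3, Fitm2, Rassf1, Fabp4 and Rbfox2 thus stood in both rankings of their member.

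Between the members themselves 45 pairs were tested after the group means had been subtracted, by permutation of mice within groups. The pair of Btg2 and Egr1 had the highest r, 0.60 (permutation p = 0.00662, adjusted p = 0.178), with Spearman's rho 0.64 (permutation p = 0.00406, adjusted p = 0.183). It was 0.52 in lane 7 and 0.64 in lane 8, and 0.55 without the 2 mice farthest from the median of Btg2. Gadd45g and Fos had an r of 0.47 (permutation p = 0.00791, adjusted p = 0.178), which was 0.60 in lane 7 and 0.17 in lane 8. Jun and Fos, the AP-1 partners, had an r of 0.52 (permutation p = 0.0314, adjusted p = 0.302) and a rho of 0.46. An adjusted p below 0.05 was reached by 0 pairs, and an unadjusted one by 5 for r and 5 for rho. The r was positive in 38 of the 45 pairs, with a median of 0.23 and a range of -0.39 to 0.60.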

How the data were processed

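Liver RNA of 32 mice was sequenced from the 3′ end of transcripts, and the deposited table holds raw counts of reads per Ensembl gene. The authors mapped reads to GRCm38 with HISAT 0.1.5, sorted them with SAMtools 1.2 and counted them with HTSeq 0.6.1p1, with no scaling, and the strand setting is not given in the sources used here. Total counts were 2031053 to 4292200 per mouse, and limits from counts cover counting error only. CPM, counts scaled to TMM library sizes, were computed here and are not scaled by length, so levels are compared between mice and not between genes. Genes without a symbol held 0.125% of counts.

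The main test was edgeR 4.0.16 (R 4.3.3), quasi-likelihood with filterByExpr and Benjamini-Hochberg adjustment over all genes tested, at an adjusted p of 0.05. One model of 8 groups and 30 mice served all comparisons except KO against WT in single conditions, each fitted on its own mice. Confidence intervals are 95% intervals from the SE. Single genes were also compared by exact permutation, and member pairs by 100000 permutations. The script was tested on simulated data. DESeq2 1.42.0, limma 3.58.1 and other settings were alternatives. The members and lists were chosen with earlier results of these data known. From each list the text names up to 4 genes per direction that passed with fasting, and for each member the 2 genes most like it.

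Sequencing lanes 7 and 8 held 16 mice each per the labels, while the methods of the study give 8 samples per lane, and within-lane values rest on the labels. Same-numbered mice of different groups did not deviate together: the median correlation of their deviations was 0.00603 over 98 pairs. No 2 mice of a group agreed within sampling noise (chi-square per degree of freedom 3.93 to 49.1 over 42 pairs).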

Additional observations from a re-analysis of the deposited data

Results flagged for a closer look

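The fasting change of Cdkn1a differed between the diets, by -2.36 on the log2 scale for HF minus LF, in a test of the difference itself (edgeR, adjusted p = 0.0131).

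A single mouse stood apart from its group by Dixon's test in 8 of the 80 combinations of member and group. Chance alone gives about 1 in 20 for normally distributed values. CPM from counts near 0 depart from that, so the number flagged is a description only. In WT LF fed replicate 2, which the comparisons leave out, Cdkn1a was at 86.7 CPM and Ccnd1 at 611 CPM, both above the other 3 mice. In WT HF fasted mice Cdkn1a was low in replicate 2, at 7.52 CPM, the liver that also lay near the fed level in the fasting check. Gadd45a was low in WT HF fasted replicate 3, at 5.35 CPM. Gadd45b had 0.778 CPM, from 2 counts, in WT HF fed replicate 1 and 0 counts in the other mice of that group. In such a group any count above 0 is flagged. Gadd45g was low in KO HF fed replicate 3, at 17.4 CPM, and Jun high in KO HF fed replicate 2, at 86.7 CPM. Egr1 was high in KO LF fasted replicate 1, at 147 CPM.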

How the results depend on the processing

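Over the alternatives, counts of members called stayed within 1.5 times the main count in 406 cases and moved in 27. The cases that stayed include counts of 0 that remained 0. The tally does not show whether the same members were called, so it is no measure of how stable single calls were. With fasting on average 3 members were called, and 0 within lane 7, which holds no WT LF fed mouse and so leaves out that combination. In WT LF mice 1 was called, Cdkn1a, against 2 with 31 mice (WT LF fed replicate 2 added back) or DESeq2, and 1 to 2 without single mice. With 31 mice Cdkn1a was lost (adjusted p = 0.0861, edgeR), and the 2 were Gadd45a (adjusted p = 0.0336) and Ccnd1 (-2.93, adjusted p = 0.00887). With all 32 mice Ccnd1 was called (-2.93, adjusted p = 0.0111, edgeR) and Cdkn1a was not (adjusted p = 0.147). In WT HF mice 0 were called, against 1 (Gadd45b) without the 2 HF fasted mice near the fed level or the 2 mice with pancreas genes, both chosen after seeing the data, and 0 to 1 without single mice, the 1 without WT HF fasted replicate 2. In KO LF mice 3 were called, and 1 to 3 without single mice, the 1 without KO LF fed replicate 3 or KO LF fasted replicate 4. For HF against LF in WT fasted mice 1 became 0 with all 32 or with 31 mice, 2 with DESeq2 and 1 to 2 without single mice. In KO fasted mice 1 became 0 with 31 mice, 4 with DESeq2 and 0 to 3 without single mice, the 0 without KO HF fasted replicate 2. With all 32 mice Btg1 was called there (adjusted p = 0.0346, edgeR) and Cdkn1a was not (adjusted p = 0.108). For the fasting response, HF minus LF, 1 became 0 with all 32 or with 31 mice, 2 with DESeq2 or limma voom and 1 to 2 without single mice. For KO against WT, 0 became 1 without the filter in HF fed and in HF fasted mice, and 1 in HF fasted mice with the lane as a term. The cause of these moves was not tested.

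Changes with fasting that had not passed turned sign in 7 cases. Gadd45g was -0.070 without the 2 mice with adrenal genes and -0.83 within lane 7, Btg1 -0.0015 within lane 7, Jun -0.086 without the mice with adrenal genes, and Egr1 -0.21 within lane 8 and -0.033 to 0.41 without single mice, below 0 without KO HF fasted replicate 3 or KO LF fasted replicate 1. With the replicate block, which rests on shared numbers alone, Cdkn1a was 2.27 with fasting (adjusted p = 1.97e-06, edgeR), and the block changed no call of a member. At 0 to 29 counts per library, Gadd45b is limited by depth, and so is Fos at 1 to 27 counts. Gadd45a is limited by depth in fasted LF livers, at 9 to 16 counts in WT and 0 to 11 counts in KO mice.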

Other observations

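In the 2 libraries left out, some members lay above the range of the 30 mice used, the CPM here being scaled with all 32 libraries. Of these, the second mouse of the WT LF fed group had Btg2 at 61.8 CPM, Fos at 14.5 CPM and Gadd45a at 29.0 CPM, each above that range, and Jun at 121 CPM, within it. KO HF fasted replicate 4, the library with heart markers, had Gadd45a at 26.9 CPM, above it, and Cdkn1a at 74.9 CPM and Btg2 at 47.0 CPM, within it.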
